A study of Mus musculus with 24 samples.

Results

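The miR-17-92 cluster was followed across the reproductive cycle of the mouse mammary gland through 6 mature miRNAs, each from a different hairpin of its primary transcript. These members were mmu-miR-17-5p, mmu-miR-18a-5p, mmu-miR-19a-3p, mmu-miR-20a-5p, mmu-miR-19b-3p and mmu-miR-92a-3p, named without the prefix below. They were taken by name, with no threshold on a measured value, from the 1009 miRNAs of the deposited table, and all 6 passed the filter on low values. The question was whether members of one primary transcript change together. Small RNA came from 24 female C57BL/6 mice, with 6 adult mice at 10 weeks of age (W10), 6 at day 18 of pregnancy (P18), 6 at day 7 of lactation (Lac7) and 6 at day 3 of involution (Inv3). The labels name no transgene and no treatment. Abdominal and inguinal glands were ground whole, so a lower level may reflect fewer cells of a type or less RNA per cell, and these cannot be told apart. The design text of the series swaps the days of lactation and involution, and the days of the library labels are used here.

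A miRNA cluster is transcribed as one long primary RNA, from which Drosha with DGCR8 cuts each hairpin in the nucleus, before Dicer frees a duplex and one strand is kept in an Argonaute protein. The miR-17-92 cluster is driven by Myc and E2F factors in dividing cells and was first known for its amplification in lymphoma. Its members fall into seed families, a seed being the stretch near the 5′ end that pairs with target mRNAs. The miR-17 family is known to act on cell cycle inhibitors.

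The mature sequences below show which members share a seed and which differ by so few bases that reads have to be assigned with care. They are those of RefSeq (GRCm38.p6), which held 20 of the 21 miRNAs looked up, with bases 2 to 8 (the seed) in capitals. The first lines are the members, in their order along the transcript.
miR-17-5p: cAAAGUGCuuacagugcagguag
miR-18a-5p: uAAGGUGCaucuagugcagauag
miR-19a-3p: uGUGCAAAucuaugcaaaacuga
miR-20a-5p: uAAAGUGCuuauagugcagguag
miR-19b-3p: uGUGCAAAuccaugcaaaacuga
miR-92a-3p: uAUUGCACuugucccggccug
The next lines are the other arm of the miR-17 hairpin, the other arm of the miR-92a-1 hairpin, and 3 miRNAs of the related X-linked cluster that resemble members.
miR-17-3p: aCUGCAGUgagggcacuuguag
miR-92a-1-5p: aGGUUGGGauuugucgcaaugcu
miR-106a-5p: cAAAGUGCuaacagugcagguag
miR-20b-5p: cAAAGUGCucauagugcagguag
miR-363-3p: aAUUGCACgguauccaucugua

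The seed AAAGUGC was shared by miR-17-5p and miR-20a-5p, GUGCAAA by miR-19a-3p and miR-19b-3p, and miR-18a-5p (AAGGUGC) and miR-92a-3p (AUUGCAC) had no other member with their seed. Positions are counted from 1 at the 5′ end. miR-20a-5p differs from miR-17-5p by C1U and C12U, both outside the seed. miR-19b-3p differs from miR-19a-3p by U11C alone. The X-linked miR-106a-5p differs from miR-17-5p by U10A alone, and miR-20b-5p from miR-20a-5p by U1C and U10C, so reads of these pairs are told apart by 1 or 2 bases.

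In GRCm38 (GENCODE M21), the host gene Mir17hg, a lincRNA with 2 exons, lies on the plus strand of chromosome 14 from 115042879 to 115046727. All 6 hairpins lie in exon 2, within 836 bases from 115043671 to 115044506. A second hairpin of miR-19b (Mir19b-2, X, 52741983 to 52742066) and of miR-92a (Mir92-2, X, 52741838 to 52741928) lies on the minus strand of the X chromosome, between Mir363 and Mir20b. Each pair of hairpins gives the same mature miR-19b-3p or miR-92a-3p, so the 2 members with a second copy are sums over both loci. miR-17-5p, miR-18a-5p, miR-19a-3p and miR-20a-5p have 1 hairpin each.

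The libraries held 660346 to 1165321 reads on listed miRNAs, and the Lac7 libraries were the shallowest, at 660346 to 751890. Levels are reads per 1000000 reads on listed miRNAs (RPM). The 6 mice at Inv3 were the least alike in the summed level of the 9 epithelial miRNAs. These include members of the miR-200, miR-183 and miR-205 groups. The sum was 29476 to 86184 RPM at Inv3 and 126864 to 146753 RPM at Lac7. It was 58595 to 73007 RPM at P18 and 21661 to 26391 RPM at W10. Whether its spread reflects the amount of epithelium was not tested. All 9 were above 0 in every mouse. miR-1a-3p and the other 3 skeletal muscle miRNAs summed to as much as 24031 RPM in a W10 library.

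miR-17-5p and miR-20a-5p, the members with the seed AAAGUGC, were highest in late pregnancy. miR-17-5p, the first hairpin of the transcript, was at 57.1 to 97.1 RPM at W10 (median 85.3), 93.8 to 141 RPM at P18 (median 126), 44.9 to 77.1 RPM at Lac7 (median 58.2) and 36.2 to 70.6 RPM at Inv3 (median 50.8). Every mouse at P18 was above every mouse at Lac7 and Inv3, while the highest W10 mice overlapped the lowest at P18. Its means ± SD were 82.2 ± 14.8, 122 ± 17.4, 58.9 ± 11.5 and 51.3 ± 12.3 RPM (n = 6 each), an order in which the neighbours Lac7 and Inv3 did not differ beyond their spread. miR-20a-5p, with the same seed, was several times more abundant. Its range was 211 to 398 RPM at W10 (median 345), 501 to 883 RPM at P18 (median 742), 253 to 405 RPM at Lac7 (median 319) and 223 to 402 RPM at Inv3 (median 348). All 6 P18 mice were above all 18 others, and the means at W10 (329 ± 69.1 RPM), Lac7 (320 ± 55.7 RPM) and Inv3 (326 ± 69.4 RPM) lay within their SDs of each other, against 727 ± 142 RPM at P18.

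miR-18a-5p, whose hairpin is known to be cut with the help of the RNA-binding protein hnRNPA1, had the steepest rise into pregnancy among the members. It was at 19.4 to 54.9 RPM at W10 (median 42.8), 81.0 to 159 RPM at P18 (median 128), 60.4 to 77.1 RPM at Lac7 (median 74.6) and 31.4 to 54.0 RPM at Inv3 (median 45.4). P18 stood above Lac7 and Lac7 above both W10 and Inv3 without overlap, and W10 and Inv3 overlapped. The means ± SD were 38.9 ± 15.4, 125 ± 33.4, 71.4 ± 7.30 and 44.7 ± 9.20 RPM (n = 6 each). Reads per library were few for this member, 18 to 170, and at Lac7 the SD between mice (10.2% of the mean) was below what counting alone gives (14.1%).

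The members with the seed GUGCAAA had their lowest means at Lac7. miR-19a-3p was at 120 to 248 RPM at W10 (median 210), 194 to 289 RPM at P18 (median 214), 92.3 to 146 RPM at Lac7 (median 125) and 96.8 to 187 RPM at Inv3 (median 142). All P18 mice were above all Lac7 and Inv3 mice, and the mean at W10 (193 ± 55.4 RPM) lay within its SD of that at P18 (226 ± 33.6 RPM). miR-19b-3p, the most abundant member at all 4 stages, ranged from 1271 to 2544 RPM at W10 (median 1874), 1310 to 3471 RPM at P18 (median 2137), 811 to 1178 RPM at Lac7 (median 1031) and 1062 to 2172 RPM at Inv3 (median 1785). Here Lac7 stood apart as the low stage (1023 ± 147 RPM), below every W10 and P18 mouse, with 1882 ± 540 RPM at W10, 2278 ± 706 RPM at P18 and 1719 ± 396 RPM at Inv3.

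miR-92a-3p, the last hairpin of the transcript and a known regulator of vessel growth, had another order. It was at 595 to 1352 RPM at W10 (median 1033), 459 to 881 RPM at P18 (median 511), 96.4 to 154 RPM at Lac7 (median 128) and 167 to 536 RPM at Inv3 (median 242). W10 was the highest stage and every Lac7 mouse lay below every mouse of the other stages. At Inv3, mice 1 and 2 (433 and 536 RPM) stood above the others, which were at 167 to 243 RPM. The means ± SD were 975 ± 280, 593 ± 167, 127 ± 23.6 and 309 ± 143 RPM (n = 6 each).

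**Figure D1:**
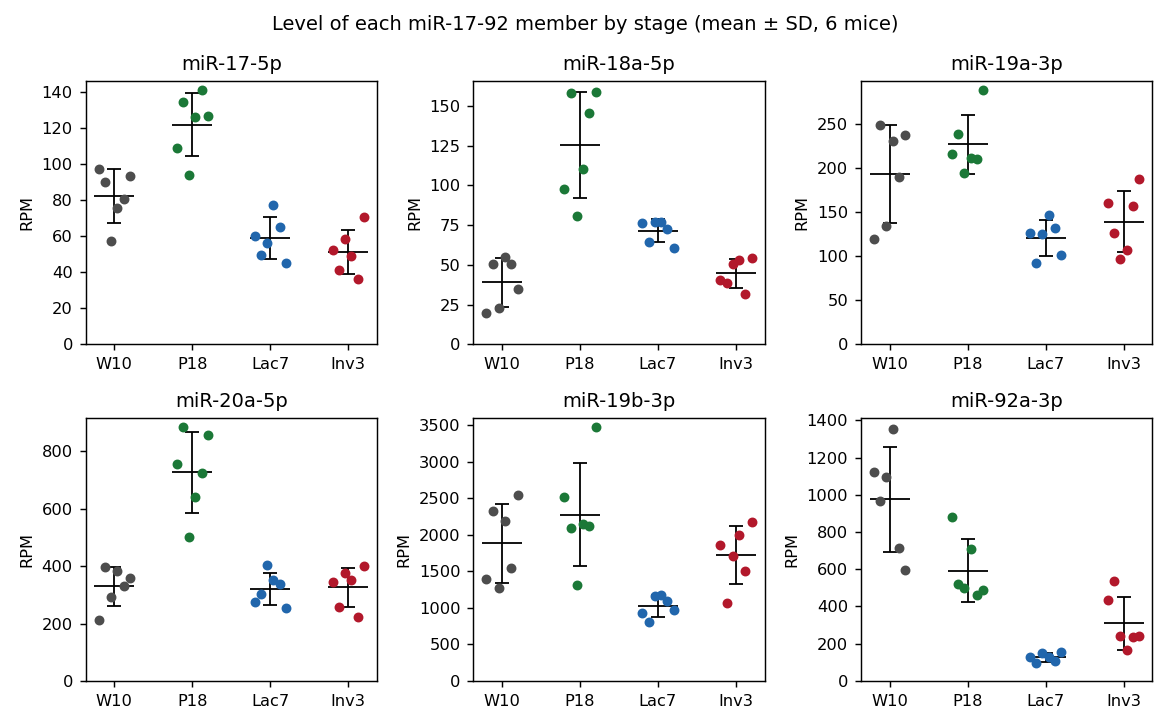
Level (RPM, linear axis from 0) of each member in every mouse at W10, P18, Lac7 and Inv3, with one point per mouse and the mean and SD of 6 mice as black bars. The mean is highest at P18 in the panels of miR-17-5p, miR-18a-5p, miR-19a-3p, miR-20a-5p and miR-19b-3p, while miR-92a-3p is highest at W10 (975 RPM) and lowest at Lac7 (127 RPM).

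Between the adult and the late pregnant gland, miR-18a-5p and miR-20a-5p rose and miR-92a-3p did not rise with them. In RPM, miR-18a-5p was 3.22-fold and miR-20a-5p 2.21-fold higher at P18. For both, every P18 mouse was above every W10 mouse, which held for 9.74% of all miRNAs. On the log2(RPM + 1) scale the differences were 1.72 ± 0.23 (SE, limma adjusted p = 9.56e-07) and 1.15 ± 0.17 (limma adjusted p = 4.91e-06). A miRNA was called with a limma adjusted p under 0.05 and a log2 fold change of at least 1 in size, and these 2 of the 6 members were called higher, where 7.54% of the 544 miRNAs tested were. miR-17-5p passed the adjusted p alone (0.57 ± 0.18, limma adjusted p = 0.0116), as did miR-92a-3p in the other direction (fell by 0.70, SE 0.24, limma adjusted p = 0.0180). With p alone, 3 members were higher and 1 lower, where 12.1% and 29.4% of all miRNAs were. The log2 differences of miR-19a-3p and miR-19b-3p were 0.27 each and did not pass (limma adjusted p = 0.265 and 0.297). The median of all 544 miRNAs was -0.32 in RPM and -0.12 with DESeq2 size factors, so the members stand higher against the other miRNAs than against 0. With size factors, miR-92a-3p was at -0.45 and did not pass (limma adjusted p = 0.130), while miR-19a-3p (0.52) and miR-19b-3p (0.52) did (limma adjusted p = 0.0282 and 0.0302).

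From late pregnancy to lactation all 6 members fell together. Every Lac7 mouse was below every P18 mouse for 6 of 6 members, where 19.1% of all miRNAs were lower without overlap. All 6 passed the adjusted p, where 31.4% of all miRNAs did so downwards, and 4 were called lower, where 22.6% were. miR-92a-3p fell most, by 2.19 (SE 0.24, limma adjusted p = 2.59e-08), and miR-18a-5p least, by 0.77 (SE 0.23, limma adjusted p = 0.00822). Between them lay miR-20a-5p (-1.17), miR-19b-3p (-1.11), miR-17-5p (-1.04) and miR-19a-3p (-0.91). The log2 median over the members was -1.08, beside -0.34 for all miRNAs in RPM and -0.14 with size factors. With size factors all 6 differences kept their sign, 1 member (miR-92a-3p, -1.89) was called, and miR-18a-5p (-0.47) missed the adjusted p (limma adjusted p = 0.0897).

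From lactation to involution the members went different ways. miR-92a-3p rose by 1.18 ± 0.24 (limma adjusted p = 0.000188), without overlap (13.6% of all miRNAs), and was the 1 member called higher, where 16.5% of all miRNAs were. That call turned on 1 mouse, since without Inv3 mouse 2 the difference was 0.99. miR-19b-3p passed the adjusted p upwards (0.72 ± 0.20, limma adjusted p = 0.00436) and miR-18a-5p downwards, with every Inv3 mouse below every Lac7 mouse, as for 11.2% of all miRNAs (fell by 0.68, SE 0.23, limma adjusted p = 0.0183). With p alone, 2 members were higher and 1 lower, where 27.9% and 18.9% of all miRNAs were. miR-17-5p (-0.20), miR-19a-3p (0.18) and miR-20a-5p (0.01, and -0.16 with size factors) did not pass. The median over all miRNAs was 0.28 in RPM and 0.18 with size factors.

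Lactation against the adult gland gave the widest range between members, from 0.96 ± 0.23 for miR-18a-5p (limma adjusted p = 0.000878) to -2.90 ± 0.24 for miR-92a-3p ( limma adjusted p = 3.42e-11). miR-92a-3p was 7.67-fold lower in RPM and the 1 member called lower, where 39.7% of all miRNAs were. It and miR-19b-3p were lower without overlap, as were 29.4% of all miRNAs. miR-18a-5p was higher in every Lac7 mouse than in any W10 mouse, which held for 12.3% of all miRNAs. It was just under the fold of the call and passed it with size factors (1.50). With p alone, 1 member was higher and 4 lower, where 18.2% and 48.5% of all miRNAs were. The median of all miRNAs was -0.66 in RPM and -0.31 with size factors, and signs turned here: miR-17-5p was at -0.48 in RPM and 0.07 with size factors, and miR-20a-5p at -0.03 and 0.53. miR-19a-3p (-0.64 and -0.09) and miR-19b-3p (-0.84 and -0.28) kept theirs but passed the adjusted p in RPM alone.

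Against P18, the Inv3 gland had 4 members called lower, where 9.74% of all miRNAs were: miR-18a-5p (-1.45 ± 0.23), miR-17-5p (-1.25 ± 0.18), miR-20a-5p (-1.16 ± 0.17) and miR-92a-3p (-1.01 ± 0.24). All but miR-92a-3p of these, and miR-19a-3p, were lower without overlap (8.27% of all miRNAs). With p alone 5 were lower, with miR-19a-3p (-0.73 ± 0.19), where 17.6% of all miRNAs were, and miR-19b-3p (-0.38 ± 0.20) did not pass (limma adjusted p = 0.175). miR-92a-3p lay at the edge of the call and was at -0.89 with size factors. Against W10, the 1 member called was miR-92a-3p, which was lower at Inv3 (-1.72 ± 0.24, limma adjusted p = 3.03e-06) without overlap, where 19.5% of all miRNAs were called lower and 12.1% were lower without overlap. miR-17-5p was the other that passed the adjusted p (fell by 0.68, SE 0.18, limma adjusted p = 0.00346, where 31.2% of all miRNAs passed downwards), and it did not with size factors (-0.31, limma adjusted p = 0.194). These comparisons share their P18, Inv3 and W10 libraries with those above and are not independent of them.

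**Figure D2:**
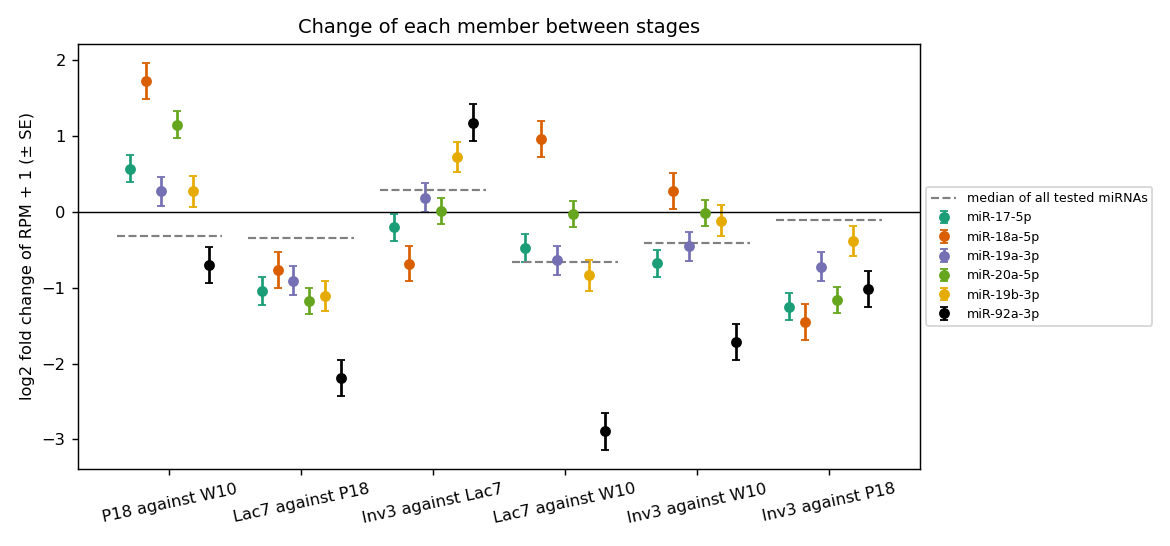
log2 fold change of RPM + 1 (vertical axis, with SE from limma) of the 6 members in the 6 comparisons of stages, and the median over all 544 miRNAs as a dashed line. All 6 members are below 0 for Lac7 against P18, whereas for Lac7 against W10 they run from 0.96 (miR-18a-5p) to -2.90 (miR-92a-3p).

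A ratio of 2 members within a library depends little on how the library was scaled, and shows whether they changed by unequal amounts. Each member was set against miR-17-5p, and the log2 ratio, with 1 RPM added to both levels, was compared between stages by a two-sided exact permutation test with Benjamini-Hochberg adjustment over 30 tests. The smallest p that 6 mice against 6 allow is 0.00216. From W10 to P18 the ratio changed for 3 of 5 members. The log2 ratio of miR-18a-5p went from -1.14 ± 0.66 (SD) to 0.01 ± 0.23, a difference of 1.15 ± 0.28 (SE) with no overlap between mice (adjusted exact p = 0.00928). That of miR-20a-5p went from 1.98 ± 0.45 to 2.56 ± 0.21, a difference of 0.58 ± 0.20 (adjusted exact p = 0.00928). That of miR-92a-3p fell from 3.52 ± 0.60 to 2.25 ± 0.48, a difference of -1.27 ± 0.31 (adjusted exact p = 0.0118). Those with the miR-19 seed did not pass (-0.30 for each).

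From P18 to Lac7, miR-92a-3p was the 1 member whose ratio to miR-17-5p changed, by -1.15 ± 0.26 (adjusted exact p = 0.0118). Against the mean of the other 5 members as the reference, 3 members changed here. For the other members the differences were 0.28 (miR-18a-5p, adjusted exact p = 0.0840), 0.13 (miR-19a-3p), -0.13 (miR-20a-5p) and -0.06 (miR-19b-3p). The difference for miR-18a-5p passed when P18 mouse 6 or Lac7 mouse 4 was left out (0.34 each time). From Lac7 to Inv3, 3 ratios changed: miR-92a-3p by 1.38 ± 0.36 (adjusted exact p = 0.0162), miR-19b-3p by 0.93 ± 0.14 without overlap (adjusted exact p = 0.00928) and miR-18a-5p by -0.48 ± 0.10 (adjusted exact p = 0.0118). The differences for miR-19a-3p (0.39) and miR-20a-5p (0.22) did not pass.

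Against W10, the ratio of miR-18a-5p stayed higher at Lac7 (1.43 ± 0.28) and Inv3 (0.95 ± 0.28), both with an adjusted exact p of 0.00928. That of miR-20a-5p was higher at Inv3 (0.67 ± 0.19, adjusted exact p = 0.00928), and that of miR-92a-3p was lower at Lac7 (-2.42 ± 0.30, adjusted exact p = 0.00928). The ratio of miR-19b-3p was higher at Inv3 than at W10 (0.57 ± 0.19, adjusted exact p = 0.0350), a call lost without any one of 7 of the 12 mice (0.44 to 0.59), and higher than at P18 (0.87 ± 0.19, adjusted exact p = 0.0118). The ratio of miR-19a-3p did not pass in any of the 6 comparisons, with differences from -0.30 to 0.52. It passed in 4 when single mice were left out: W10 mouse 1 for P18 and Lac7 against W10 (-0.48 and -0.34) and Inv3 mouse 3 for Inv3 against Lac7 and P18 (0.53 and 0.66). Counting alone gives a log2 ratio an SD of 0.15 to 0.30 in these libraries, largest for miR-18a-5p.

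**Figure D3:**
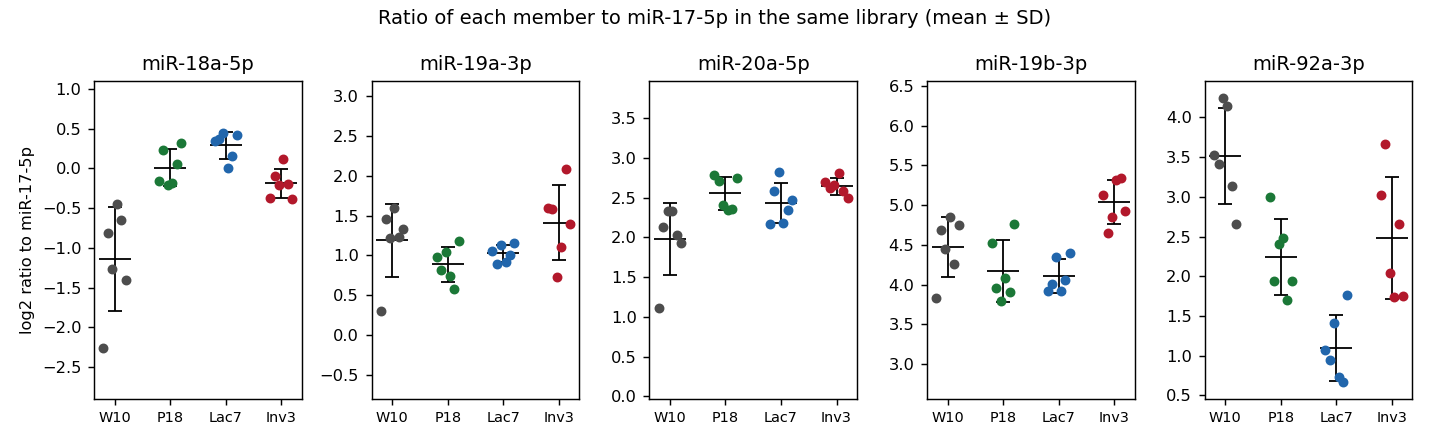
log2 ratio of each of 5 members to miR-17-5p in the same library (vertical axes of equal length, with different starts), one point per mouse, with the mean and SD of 6 mice as black bars. miR-18a-5p rises from W10 to P18 by 1.15, miR-92a-3p steps down to Lac7 and up again at Inv3, and miR-19a-3p overlaps between all 4 stages.

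Added up, the 6 members made 3501 ± 651 RPM at W10, 4072 ± 896 RPM at P18, 1721 ± 229 RPM at Lac7 and 2588 ± 410 RPM at Inv3 (SD, n = 6). Their make-up shifted. Of the summed level of the 6 members, miR-92a-3p gave 28.5% ± 8.97 in W10 mice and 14.99% ± 4.21 at P18. It gave 7.44% ± 1.40 at Lac7 and 12.5% ± 7.25 at Inv3. miR-20a-5p gave 9.43% ± 1.41 in W10 mice, 18.1% ± 2.31 at P18, 18.6% ± 2.01 at Lac7 and 12.5% ± 1.49 at Inv3. On average miR-19b-3p gave more than the other members together at each stage, from 53.1% ± 7.72 at W10 to 65.8% ± 7.62 at Inv3. This did not hold in every mouse, with a lowest share of 44.2% at W10 and 48.9% at P18. Shares depend on how well each small RNA is ligated and amplified, so they describe the libraries and not molar amounts.

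The arms of the miR-17 hairpin changed by unequal amounts. A hairpin gives a 5p and a 3p strand in equal number, of which one is usually degraded. miR-17-3p was counted more often than miR-17-5p in every mouse at W10, P18 and Inv3. Its level was 207 to 374 RPM at W10 (median 314), 196 to 366 RPM at P18 (median 278), 46.4 to 84.5 RPM at Lac7 (median 48.3) and 161 to 262 RPM at Inv3 (median 228). The 6 Lac7 mice lay below all others. Of all miRNAs, 29.4%, 19.1% and 13.6% were lower at Lac7 without overlap than at W10, P18 and Inv3. The log2 differences were -2.29 ± 0.19 from P18 to Lac7 (limma adjusted p = 1.50e-10) and 1.98 ± 0.19 from Lac7 to Inv3 (limma adjusted p = 3.04e-09). Both were called, where 22.6% of all miRNAs were called lower and 16.5% higher in these comparisons. The median ratio of miR-17-3p to miR-17-5p was 3.36 in W10 mice, 2.17 at P18, 0.892 at Lac7 and 4.34 at Inv3. On the log2 scale, with 1 RPM added to both levels, this ratio fell by 1.24 from P18 to Lac7 (SE 0.24, adjusted exact p = 0.0173) and rose by 2.19 ± 0.28 to Inv3 without overlap (adjusted exact p = 0.0130), over 24 permutation tests of arm ratios. Both arms come from one hairpin on chromosome 14, with no second copy. The arm ratios were chosen for testing after the values had been seen.

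miR-92a-1-5p, the other arm of the hairpin on chromosome 14, is not shared with the X-linked copy. It was at 4.79 ± 1.78 RPM at W10, 9.01 ± 3.07 RPM at P18, 4.05 ± 1.07 RPM at Lac7 and 4.51 ± 1.71 RPM at Inv3, from 2 to 12 reads per library. It was highest at P18 like the other 5 members, where miR-92a-3p was not (P18 against W10, 0.79 ± 0.29, limma adjusted p = 0.0291). The ratio of miR-92a-3p to miR-92a-1-5p had a median of 174 in W10 mice, 77.5 at P18, 31.2 at Lac7 and 69.8 at Inv3. Its log2 value (with 1 RPM added to both levels) fell by 1.50 from W10 to P18 (SE 0.35, adjusted exact p = 0.0130) and by 1.24 from P18 to Lac7 (SE 0.30, adjusted exact p = 0.0223), beside an SD from counting alone of 0.60 and 0.70. Which of the loci gave the miR-92a-3p reads that changed cannot be told apart. The other arms were near the limit of 3 reads, which is 2.57 to 4.54 RPM in these libraries: miR-20a-3p had means of 3.76 to 10.1 RPM, miR-18a-3p of 2.16 to 4.91 RPM, and miR-19a-5p and miR-19b-1-5p had means of at most 1.16 RPM. The ratio of miR-20a-3p to miR-20a-5p passed in 0 of 6 comparisons (adjusted exact p = 0.0970 to 0.922), and that of miR-18a-3p to miR-18a-5p in 3 of 6, at 0 to 9 reads of miR-18a-3p per library.

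**Figure D4:**
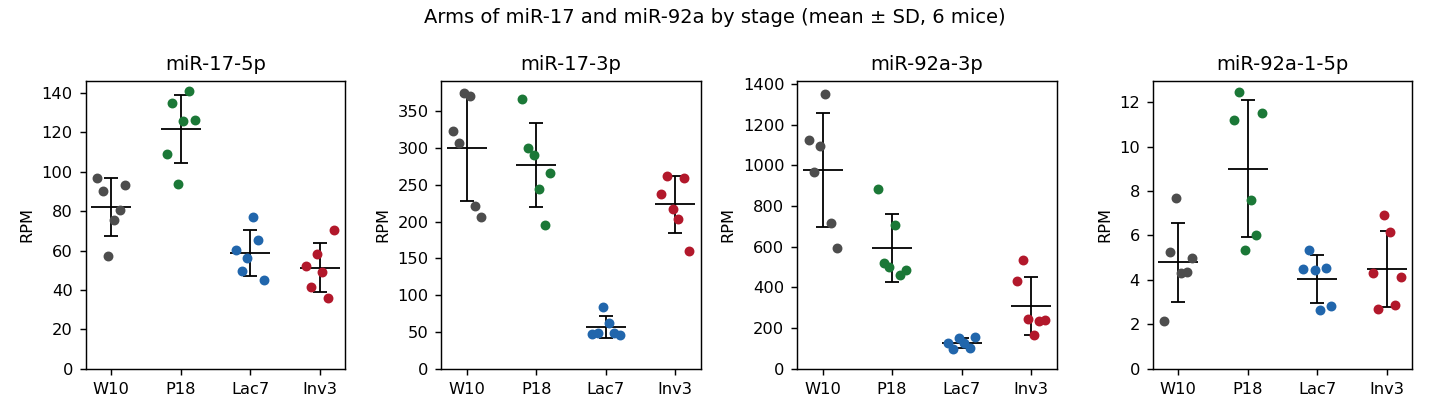
Levels (RPM, linear axes from 0 with different tops) of both arms of miR-17 and of miR-92a-3p with miR-92a-1-5p, one point per mouse, with the mean and SD of 6 mice as black bars. miR-17-3p drops to 46.4 to 84.5 RPM at Lac7 and is back at 161 to 262 RPM at Inv3 while miR-17-5p is not, and miR-92a-1-5p is highest at P18 whereas miR-92a-3p is highest at W10.

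Between mice of one stage, members other than miR-92a-3p were positively correlated with each other. The stage means of log2(RPM + 1) were subtracted, and the 24 mice were then compared. The members of a pair share the library and its scaling. All 10 pairs among the 5 members had a positive correlation (Pearson's r 0.35 to 0.81), and all 5 pairs with miR-92a-3p a negative one (-0.26 to -0.04). The median over the 15 pairs was 0.52, beside 0.03 over the 17578 pairs of the 188 miRNAs that averaged 100 RPM or more. A correlation over 0.5 was found in 8 of the 15 pairs and in 9.72% of all pairs. miR-18a-5p and miR-20a-5p were the closest pair, with r = 0.81 (permutation p = 1e-05, the smallest that 100000 permutations can give) and Spearman's rho = 0.76 (permutation p = 4.0e-05). Without the 2 mice farthest from the median of miR-18a-5p, r was 0.77. miR-20a-5p and miR-19b-3p had r = 0.75 (permutation p = 0.000110) and rho = 0.78 (permutation p = 6.0e-05), with r = 0.79 without such mice. miR-19a-3p and miR-19b-3p, which differ by 1 base, had r = 0.65 (permutation p = 0.00174) and rho = 0.70 (permutation p = 0.00111), with r = 0.68 without such mice. For miR-17-5p with miR-18a-5p, and miR-18a-5p with miR-19a-3p, r dropped from 0.47 to 0.30 and from 0.56 to 0.33 without such mice. Over the 15 pairs, 9 had a Benjamini-Hochberg adjusted permutation p under 0.05 for r and 5 for rho. miR-17-5p was in none of the 5, and its pair with miR-19a-3p (r = 0.35, adjusted permutation p = 0.199) did not pass for r either. miR-92a-3p reached -0.26 with miR-18a-5p (adjusted permutation p = 0.367, rho = -0.29 with permutation p = 0.211, and r = -0.19 without such mice), and none of its 5 pairs passed.

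**Figure D5:**
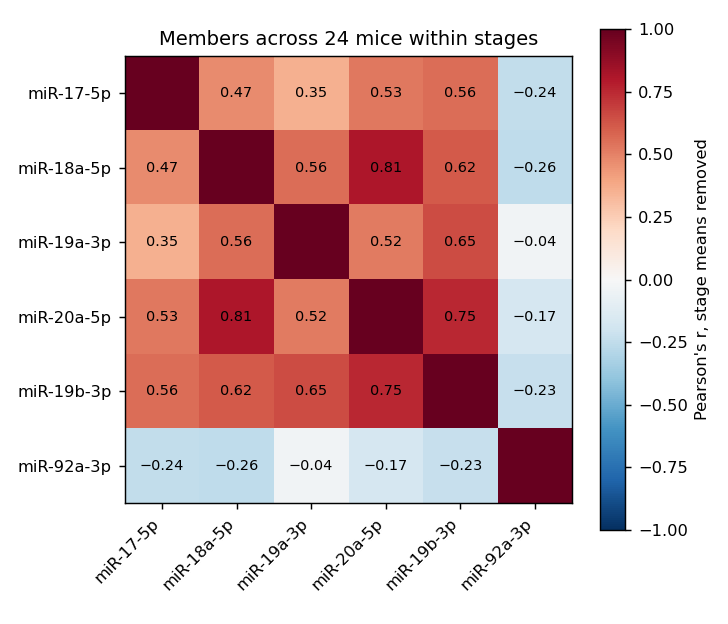
Pearson's r between each pair of members over 24 mice after the stage means were subtracted (colour scale from -1 to 1, values printed in the cells). The block of 5 members is positive throughout, from 0.35 to 0.81, and the row of miR-92a-3p is between -0.26 and -0.04.

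The related clusters differed in how they followed the members. The X-linked miR-106a-363 cluster is a copy of miR-17-92 that arose by duplication. Its miR-19b-3p and miR-92a-3p are counted with the members. The 4 other miRNAs listed for it were all lowest at Lac7, and 3 of them were highest at W10. miR-20b-5p was at 64.7 to 105 RPM at W10 (median 82.5), 14.1 to 37.8 RPM at P18 (median 29.0), 1.34 to 21.3 RPM at Lac7 (median 2.91) and 20.8 to 46.3 RPM at Inv3 (median 28.2). It was 3.04-fold lower at P18 than at W10 in RPM, without overlap (log2 difference -1.61 ± 0.39, limma adjusted p = 0.00108), where its near copy miR-20a-5p rose. miR-363-3p, at the end of that cluster and with the seed of miR-92a-3p, went from 43.7 ± 21.9 RPM at W10 to 10.4 ± 4.71 RPM at P18, 1.90 ± 1.40 RPM at Lac7 (0 to 3 reads) and 15.9 ± 9.90 RPM at Inv3. Of 4 miRNAs tested from this cluster, 3 were called lower at P18 than at W10, where 20% of all miRNAs were, and miR-106a-5p was not called there with size factors (-0.87, limma adjusted p = 0.0880). All 4 were called lower at Lac7 than at P18 (22.6% of all miRNAs), with miR-18b-5p at 0 reads in every Lac7 library and no more than 4 in any library. Reads per Lac7 library were 0 to 1 for miR-106a-5p and 1 to 16 for miR-20b-5p, so the size of these falls is uncertain.

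The miR-106b-25 cluster, in an intron of the replication gene Mcm7, was highest at P18, like the 5 members that peaked there. miR-93-5p, with the seed of miR-17-5p, was at 3546 ± 268 RPM at W10, 5685 ± 485 RPM at P18, 2343 ± 204 RPM at Lac7 and 2923 ± 160 RPM at Inv3. miR-25-3p, which has the seed of miR-92a-3p, was at 6530 ± 540 RPM at W10, 10632 ± 1284 RPM at P18, 4771 ± 190 RPM at Lac7 and 5720 ± 406 RPM at Inv3. Neither overlapped between W10 and P18, where 9.74% of all miRNAs were higher at P18 without overlap. Nor did they between P18 and Lac7, where 19.1% were lower at Lac7 without overlap. All 3 of its miRNAs passed the adjusted p for a higher level at P18 than at W10 (0.68 to 0.95, where 12.1% of all miRNAs passed) and for a lower level at Lac7 than at P18 (-0.68 to -1.28, where 31.4% passed). With size factors the latter was lost for miR-106b-5p (-0.38, limma adjusted p = 0.106). For P18 against W10, 0 of the 3 were called higher (7.54% of all miRNAs). From Lac7 to Inv3 miR-106b-5p fell by 0.60 (SE 0.21, limma adjusted p = 0.0194, 18.9% of all miRNAs passed downwards). miR-93-5p (0.32) and miR-25-3p (0.26) rose (limma adjusted p = 0.00446 and 0.0200, 27.9% passed upwards), which was lost with size factors. miR-32-5p, another miRNA with the seed of miR-92a-3p, was highest at Lac7 (544 ± 89.6 RPM, against 371 ± 79.7 RPM at W10) and fell by 1.12 to Inv3 (SE 0.19, limma adjusted p = 2.56e-05). miR-92b-3p, with 0 to 2 reads per library, was not tested.

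Outside these clusters, the miRNAs most like the mean standardized profile of the 6 members over the 24 libraries were miR-204-5p (r = 0.87), miR-3071-3p (0.85), miR-15b-5p (0.81), miR-301a-3p (0.80) and miR-15b-3p (0.78), of 272 that averaged 10 RPM or more. These correlations are across stages, share libraries and depth, and are given as a description. miR-204-5p was at 161 ± 65.4 RPM at W10, 417 ± 81.5 RPM at P18, 35.6 ± 14.2 RPM at Lac7 and 63.4 ± 24.2 RPM at Inv3, and so peaked at P18 like the 5 members. Each member ranked the others differently. For miR-18a-5p, miR-20a-5p was second of 284 miRNAs (r = 0.83), whereas for miR-92a-3p the closest member, miR-19a-3p, ranked 109 of 284 (r = 0.61) and miR-18a-5p ranked 198 (r = -0.19). The miRNAs nearest to miR-92a-3p were miR-214-3p (0.94), known from fibroblasts, miR-125b-2-3p (0.92) and miR-191-5p (0.91).

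Leukocyte miRNAs, like miR-92a-3p, were highest at W10 and lowest at Lac7. The 3 lymphocyte miRNAs (miR-150-5p, miR-155-5p and miR-342-3p) summed to 3592 to 5007 RPM at W10, 1637 to 2530 RPM at P18, 424 to 838 RPM at Lac7 and 1575 to 3743 RPM at Inv3. The 3 miRNAs of myeloid cells and leukocytes (miR-223-3p and both arms of miR-142a) summed to 24721 to 47268 RPM at W10, 6903 to 23187 RPM at P18, 3939 to 11992 RPM at Lac7 and 12884 to 23540 RPM at Inv3. All of these were above 0 in every mouse, and all 3 of each list were called lower at Lac7 than at W10 (39.7% of all miRNAs) and higher at Inv3 than at Lac7 (16.5% of all miRNAs). For Inv3 against P18 none of either list was called and their log2 medians were 0.20 and 0.39, where miR-92a-3p was lower. Among the members, their other arms and the related miRNAs, those with their highest mean at W10 and lowest at Lac7 were miR-92a-3p, miR-17-3p, miR-18a-3p, miR-106a-5p, miR-20b-5p and miR-363-3p. How many of all miRNAs had this order was not counted. The log2 median of all miRNAs for Lac7 against W10 was -0.66. The 5 stromal miRNAs include miR-214-3p, the nearest to miR-92a-3p. Of the 5, 3 were called lower at Lac7 than at P18 (22.6% of all miRNAs). At Inv3, 3 were called higher than at Lac7 (16.5%). Against W10, 3 were called lower at Lac7 (39.7% of all miRNAs), and the log2 median of the 5 was -1.82. Their sum was 181795 ± 15062 RPM at W10, 201028 ± 8279 RPM at P18, 160808 ± 8577 RPM at Lac7 and 300619 ± 35584 RPM at Inv3. The sum does not stand for the whole list. Its log2 median was -0.69 for P18 against W10 and -0.65 for Inv3 against W10, where the sum was higher. The 2 endothelial miRNAs (both arms of miR-126a) stayed between 15594 ± 2345 RPM at Inv3 and 18466 ± 942 RPM at Lac7 in sum. The sum of the 9 epithelial miRNAs went the other way, from 23817 ± 2161 RPM at W10 to 67611 ± 5530 RPM at P18 and 135285 ± 8578 RPM at Lac7. Their log2 medians were 1.62 (P18 against W10) and 1.11 (Lac7 against P18). The 9 did not all go the same way: at Lac7 against P18, 5 were called higher and 1 lower. Of all miRNAs, 22.6% were called lower there. The share called higher is not given here, so the 5 cannot be set against it. The 3 red blood cell miRNAs summed to 1149 ± 480 RPM at W10, 607 ± 270 RPM at P18, 956 ± 56.2 RPM at Lac7 and 801 ± 196 RPM at Inv3, which is not the order of any member. The part of these cells in the levels of the members was not tested.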

How the data were processed

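Small RNA of 24 whole mammary glands was prepared with a QIAseq miRNA kit. The authors trimmed the reads (Trimmomatic 0.36 and cutadapt are named in the submitters' processing notes, with GRCm38), assigned them to miRBase 22 by QuickMIRSeq, and deposited reads per 1000000 (RPM) for 1009 miRNAs. Dividing a library's values by its smallest step returned whole reads in 100% of cases (within 0.1 of a step). In W10 mouse 7 the step is close to 1, so this was looked at directly. Reads per library were 660346 to 1165321 (median 933924). Whether molecular identifiers were counted is not given in the sources used here, so limits of detection (3 reads) cover counting error only. No pair of libraries of one stage agreed within sampling noise (smallest chi-square per degree of freedom 9.63 in 60 pairs).

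limma 3.58.1 (R 4.3.3, eBayes with trend) was run on log2(RPM + 1) for the 544 miRNAs averaging 1 RPM or more in any stage, in one fit over 24 libraries, two-sided, with Benjamini-Hochberg adjustment over all 544, so that fold changes of low miRNAs are understated. Called means an adjusted p under 0.05 with a log2 fold change of 1 or more in size. Ratios, of RPM + 1, were compared by exact permutation (924 ways of splitting 6 mice from 6), and correlations with 100000 permutations within stages. Alternatives were other pseudocounts (0.1 and 10), other filters (none and 100 RPM), DESeq2 1.42.0 size factors, edgeR 4.0.16 TMM factors, edgeR and DESeq2 on the recovered reads, a fit of 12 libraries, a block, no limit on the fold change and each mouse left out. The limma, edgeR and DESeq2 calls for P18 against W10 were tested on simulated counts. The tests of ratios and correlations were not part of this.

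The miRNAs named are the members, the other arms of their hairpins, the miR-106a-363 and miR-106b-25 clusters, miRNAs with the seed of a member, the 5 nearest by correlation with the members' mean profile, and, as a description, those nearest to single members. Mature sequences are from RefSeq and hairpin positions from GENCODE. miR-19b-2-5p, miR-92a-2-5p and miR-367-3p were not analysed here. The members and the lists of cell type miRNAs were chosen with earlier results of these data known. The numbers of the mice did not pair them.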

Additional observations from a re-analysis of the deposited data

Results flagged for a closer look

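In 28 groups of 6 mice (the 6 members and miR-17-3p at 4 stages), the gap of the highest or lowest mouse to its neighbour was in no case above the critical value of Dixon's test, which chance would pass in about 1 in 20 groups.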

How the results depend on the processing

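The count of members called for Lac7 against P18 (4) moved most with the scaling: 1 with DESeq2 size factors and with DESeq2 on the recovered reads, and 2 with TMM factors and with edgeR on the recovered reads. For Lac7 against W10 (1) it was 2 under each of these 4 and with edgeR without W10 mouse 7 (chosen after seeing the data). With no limit on the fold change the counts were 4 (P18 against W10), 3 (Inv3 against Lac7), 5 (Lac7 against W10) and 2 (Inv3 against W10). Leaving out each mouse in turn gave 2 for P18 against W10, 3 to 4 for Lac7 against P18, 0 to 1 for Inv3 against Lac7 (0 without Inv3 mouse 2), 1 to 2 for Lac7 against W10 (2 without W10 mouse 2, 4 or 5 or Lac7 mouse 6), 1 for Inv3 against W10 and 3 to 4 for Inv3 against P18. Other pseudocounts and filters and the fit of 12 libraries kept every count within 1.5 times.

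The sign of miR-17-5p for Lac7 against W10 turned with DESeq2 size factors and DESeq2 on reads (0.0709 and 0.0677). For miR-20a-5p it turned with size factors, TMM factors, edgeR, DESeq2 and edgeR without W10 mouse 7, to -0.165, -0.0421, -0.0304, -0.158 and -0.0316 for Inv3 against Lac7, 0.53, 0.43, 0.42, 0.51 and 0.40 for Lac7 against W10, and 0.36, 0.39, 0.39, 0.36 and 0.37 for Inv3 against W10. For miR-19b-3p it turned to 0.26, 0.29, 0.29, 0.26 and 0.35 for Inv3 against W10. With single mice left out, these ranged over -0.0553 to 0.114, -0.148 to 0.0374 and -0.137 to 0.0870 for miR-20a-5p (in that order) and -0.219 to 0.0155 for miR-19b-3p. The cause was not tested.

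Ratios that changed numbered 3, 1, 3, 2, 3 and 1 in the order P18 against W10, Lac7 against P18, Inv3 against Lac7, Lac7 against W10, Inv3 against W10 and Inv3 against P18. With the mean of the other 5 members as the reference, they numbered 3 for Lac7 against P18 and 2 for Inv3 against P18. With each mouse left out they were 3 to 4, 1 to 2 (2 without P18 mouse 6 or Lac7 mouse 4), 3 to 4, 2 to 4 (4 without W10 mouse 1), 2 to 4 and 1 to 2 (2 without Inv3 mouse 3). The ratio of miR-20a-5p for Inv3 against P18 was -0.0245 with a pseudocount of 10, that of miR-19b-3p for Lac7 against P18 was -0.139 to 0.0564 and that of miR-92a-3p for Inv3 against P18 was -0.0015 to 0.386 without single mice. The median correlation of the 15 pairs ranged from 0.41 to 0.52.

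The number of the mouse as a block changed no count of members called (2, 4, 1, 1, 1 and 4 in that order). The numbers do not pair the mice: the deviations from the stage means correlated by -0.05 on average in 33 same-numbered pairs, over 188 miRNAs, against 0.00 for 183 other pairs. Depth limits miR-17-5p and miR-18a-5p, at 32 to 164 and 18 to 170 reads per library, and the arms under about 10 RPM.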
